A study of Mus musculus with 6 samples.

Results

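The Skint genes are a mouse family of 11 neighbouring genes on chromosome 4, and 10 of them are described here: Skint1, Skint2, Skint3, Skint4, Skint5, Skint6, Skint7, Skint9, Skint10 and Skint11. They were taken by symbol from the 55487 genes listed in each library, and all 10 had a row. Skint8, the remaining gene of the family, is not on that list and is reported beside it. The list was chosen by the FPKM of these genes in the same 6 libraries, with the difference between the groups already known, so levels and differences of the 10 members are given as a description, and none of them is offered as a test. Skint8 and the other genes were tested across all genes. The lists of cell type, T cell, signal and butyrophilin genes below were also chosen with earlier results of these data known. Their counts of calls are therefore a description too.

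Messenger RNA of back skin epidermis of newborn mice was measured in 3 libraries labelled Znf750 cKO, written Znf750_cKO below, and 3 labelled control, all at postnatal day 0. The series describes the first of these as a knockout of Znf750, a transcription factor with a zinc finger that keratinocytes make as they differentiate, and whose mouse gene symbol is Zfp750. The epidermis was lifted off after dispase, broken up with trypsin and used as a whole cell suspension, with no sort named. Strain, sex, the alleles of either group, any Cre driver and the number of pups behind a library are not given in the labels, nor whether libraries come from separate animals, so the p-values measure only the spread between these libraries. Values are FPKM, read counts scaled to transcript length and library size, a unit that corrects for transcript length and so allows levels of different genes to be compared.

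Skint genes encode butyrophilin-like membrane proteins with immunoglobulin-like domains followed by membrane-spanning segments. Skint1, the founding member, is made by thymic epithelium and by suprabasal keratinocytes, and it is required for the selection of dendritic epidermal T cells, the γδ T cells with an invariant receptor that patrol mouse epidermis. Skint2 has been described as a B7-like inhibitor of T cell activation, while the other members have been studied less, and humans carry no intact counterpart of Skint1.

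RefSeq windows on GRCm38.p6, each running from 250 bases before a gene's start to 50 after it, were matched for all 11 genes, with 12 windows in all since Skint4 has 2. The windows of Skint9, Skint10 and Skint11 are shown because these genes are close relatives, of which Skint9 and Skint10 were lower and Skint11 higher in Znf750_cKO. Capitals mark runs of at least 10 bases that also stand in the window of another of the 3 genes.
Skint9 (chr4:112433936-112434235, minus strand): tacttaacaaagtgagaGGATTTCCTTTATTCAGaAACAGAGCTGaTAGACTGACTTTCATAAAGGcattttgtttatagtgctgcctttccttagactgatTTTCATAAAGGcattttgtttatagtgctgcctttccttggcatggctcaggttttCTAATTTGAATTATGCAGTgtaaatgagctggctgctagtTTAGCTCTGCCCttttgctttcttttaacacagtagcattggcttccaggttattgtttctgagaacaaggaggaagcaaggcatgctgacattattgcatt
Skint10 (chr4:112774812-112775111, minus strand): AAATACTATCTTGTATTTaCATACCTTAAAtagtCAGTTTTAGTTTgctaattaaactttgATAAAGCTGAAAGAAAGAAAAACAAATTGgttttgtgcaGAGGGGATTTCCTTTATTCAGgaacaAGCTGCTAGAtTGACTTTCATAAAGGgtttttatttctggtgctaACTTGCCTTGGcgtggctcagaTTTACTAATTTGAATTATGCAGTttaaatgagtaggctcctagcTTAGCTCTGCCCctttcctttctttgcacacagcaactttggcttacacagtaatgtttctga
Skint11 (chr4:114163134-114163433, plus strand): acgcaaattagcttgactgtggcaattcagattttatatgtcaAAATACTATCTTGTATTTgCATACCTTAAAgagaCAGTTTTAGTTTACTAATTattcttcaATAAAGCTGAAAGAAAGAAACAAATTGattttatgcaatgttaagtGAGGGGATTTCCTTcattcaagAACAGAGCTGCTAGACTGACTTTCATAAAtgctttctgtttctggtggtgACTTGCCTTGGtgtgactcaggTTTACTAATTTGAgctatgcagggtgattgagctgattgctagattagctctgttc
The windows of Skint5 and Skint6, not printed, were identical at 89.7% of 300 aligned bases, and those of Skint7 and Skint8 at 90.8% of 120 aligned bases. The RefSeq starts shift the windows of Skint7 and Skint8 against each other, which limits the bases that overlap. The windows of Skint10 and Skint11 were identical at 86.2% of 247 aligned bases, those of Skint9 and Skint11 at 77.3% of 203, and those of Skint9 and Skint10 at 75.9% of 257. The window of Skint1 is shown because Skint1 was the abundant member with overlapping groups, and its capitals mark the single run of at least 10 bases found in the windows of Skint5 or Skint6.
Skint1 (chr4:112006019-112006318, plus strand): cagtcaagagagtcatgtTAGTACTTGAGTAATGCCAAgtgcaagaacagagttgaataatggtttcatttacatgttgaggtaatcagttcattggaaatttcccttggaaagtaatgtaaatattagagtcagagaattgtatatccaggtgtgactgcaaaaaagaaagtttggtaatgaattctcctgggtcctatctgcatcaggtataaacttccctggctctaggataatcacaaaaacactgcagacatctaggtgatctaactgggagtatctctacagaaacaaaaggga
Skint7 and Skint8 shared the longest unbroken run of any pair, 51 bases, which begins 52 bases before the RefSeq start of Skint7 and 230 bases before that of Skint8. The RefSeq start of Skint8 differs from its GENCODE start at 111919392. In Skint8 the run lies at 111919325 to 111919375, just before that GENCODE start, so the offset depends on the start used. This run is shown with capitals absent because both genes hold it whole.
Skint7 (chr4:111972875-111972925, plus strand): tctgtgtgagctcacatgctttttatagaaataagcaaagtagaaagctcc
Short motifs were searched on both strands of these windows. TATAAA, the letters of the TATA box, stood in 8 of the 12 Skint windows, against 13.6% of 32851 windows of the same length in all genes. Matches were counted anywhere in a window. Counted in bases from the start, they lay at -31 in Skint7, -40 in Skint1 and -18 in Skint2. In Skint8 the match lay at -209, in Skint11 at -218 and in Skint6 at 7. Those of Skint4 and Skint9 lay further before the start than that of Skint1. The match of Skint1 reads TATAAA on the strand of the gene. Matches of Skint2, Skint6, Skint7, Skint8, Skint9 and Skint11 read TTTATA there, so their TATAAA stands on the opposite strand. The matches of Skint7 and Skint8 are the same letters of their shared run of 51 bases. CACCC, a core recognised by Krüppel-like factors, stood in 8 of 12, against 57.5% of all windows. TGANTCA, the AP-1 motif, stood in the Skint11 window only, against 7.8% of all windows, and CCNNAGGC, a motif described for human ZNF750, stood in 0 of 12, against 24.1% of all windows. These are matches of letters in a short window and say nothing about binding. Windows of related Skint genes share sequence, so the counts out of 12 are not counts of independent matches.

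The targeted gene and the tissue were checked first. Zfp750 stood at 0.99, 0.83 and 1.47 FPKM in the Znf750_cKO libraries and at 44.8, 32.0 and 34.9 FPKM in the control libraries, with a log2 change of -4.19 and SE of 0.17 (adjusted p = 4.6e-05 in limma, a linear model fitted across genes on log2(FPKM + 1), with a call at an adjusted p under 0.05). Keratinocyte markers were abundant in all libraries: the basal keratin Krt5 ran from 6646 to 6909 FPKM in Znf750_cKO and from 6275 to 6973 FPKM in control, and the suprabasal keratin Krt10 from 8640 to 14585 FPKM in Znf750_cKO and from 7397 to 11341 FPKM in control. The smallest steps between FPKM values put 1 read on 1 kb of transcript at 0.0283 to 0.0437 FPKM in Znf750_cKO and 0.0352 to 0.0467 FPKM in control, which is the resolution that depth gives.

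**Figure D1:**
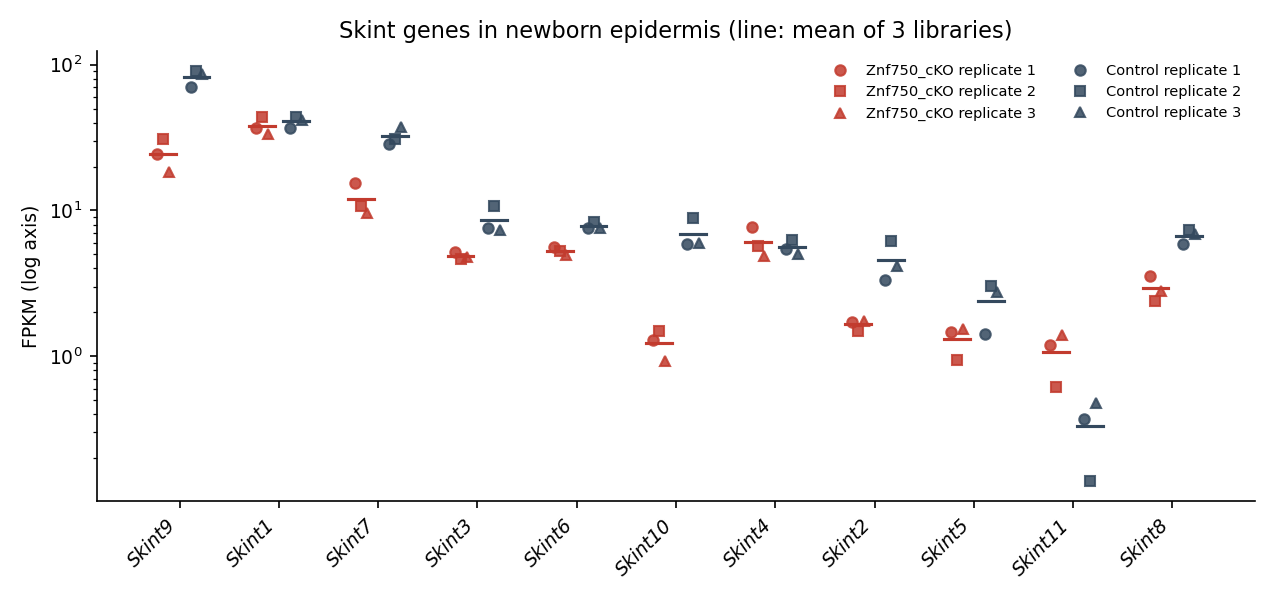
FPKM on a log axis of the 10 Skint members in order of their control mean, with Skint8 last, in 3 Znf750_cKO and 3 control libraries. Points are libraries and lines are means of 3 libraries. Skint9, Skint7 and Skint10 are lower in every Znf750_cKO library, Skint1 and Skint4 overlap, and Skint11 is higher.

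Transcripts of most Skint genes were less abundant in Znf750_cKO epidermis, while the levels of Skint1 overlapped between the groups. Skint9, Skint7 and Skint10 stood 3.34-fold, 2.71-fold and 5.61-fold lower in Znf750_cKO by mean FPKM, Skint1 stood at a ratio of 0.934 to control and Skint4 at 1.09, and the weakly expressed Skint11 was 3.22-fold higher. Levels in the 2 groups were apart for 7 of the 10 members, lower in Znf750_cKO for 6 and higher for Skint11, and overlapped for Skint1, Skint4 and Skint5. Of all 13688 genes tested, the groups were apart for 28%, lower in Znf750_cKO for 19.7% and higher for 8.28%. In a bulk suspension, fewer cells of a type and less RNA per cell cannot be told apart.

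Skint1 was measured at 36.8, 44.0 and 33.5 FPKM in Znf750_cKO replicates 1, 2 and 3, and at 37.0, 43.6 and 41.8 FPKM in control replicates 1, 2 and 3. The groups overlapped, with means of 38.1 ± 5.36 FPKM in Znf750_cKO and 40.8 ± 3.42 FPKM in control (SD, n = 3 each). Its log2 change was -0.10 (SE 0.13), and 0.00 after scaling by median ratios, so no direction is given for it. Skint1 (ENSMUSG00000089773) lies at 112006269 to 112029538 on the plus strand of GRCm38.

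Skint9, the most abundant member in control skin, stood at 24.2, 31.1 and 18.3 FPKM in Znf750_cKO, against 69.8, 90.2 and 85.9 FPKM in control. Its highest Znf750_cKO library lay below its lowest control library by more than the range of either group, and the log2 change was -1.72 (SE 0.19). The gene (ENSMUSG00000049972) lies at 112385969 to 112433985 on the minus strand and has 1 transcript in GENCODE M21.

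Skint7 was the remaining abundant member, at 15.6, 10.7 and 9.61 FPKM in Znf750_cKO and 28.8, 31.0 and 37.3 FPKM in control. The groups were apart, with a log2 change of -1.38 (SE 0.18). Znf750_cKO replicate 1 was the highest of its group. Skint7 (ENSMUSG00000049214, 111972923 to 111988223, plus strand) is 90.5% identical in coding sequence to Skint8, its neighbour in the cluster.

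Skint10 showed the most uneven ratio among the members that were lower. It stood at 1.29, 1.48 and 0.93 FPKM in Znf750_cKO and at 5.88, 8.92 and 5.97 FPKM in control, a log2 change of -1.81 (SE 0.20). Control replicate 2 was its highest library, and the lowest control library was well above the highest Znf750_cKO library. Skint10 (ENSMUSG00000048766, 112711147 to 112774866, minus strand) is the closest relative of Skint9, at 86.1% identity of 955 aligned coding bases.

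Skint2, the B7-like member, stood at 1.73, 1.48 and 1.75 FPKM in Znf750_cKO and 3.34, 6.15 and 4.19 FPKM in control. The groups were apart, with an SD of 0.15 FPKM in Znf750_cKO and 1.44 FPKM in control. The log2 change was -1.04 (SE 0.21). Skint2 (ENSMUSG00000034359) lies at 112557194 to 112652248 on the plus strand.

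Smaller differences were seen for Skint3 and Skint6. Skint3 stood at 5.19, 4.62 and 4.76 FPKM in Znf750_cKO and 7.56, 10.7 and 7.33 FPKM in control (log2 change -0.69, SE 0.16), and Skint6 at 5.62, 5.29 and 4.96 FPKM in Znf750_cKO and 7.53, 8.38 and 7.59 FPKM in control (log2 change -0.49, SE 0.12). Both had groups that did not overlap. Skint6 shares 63 exonic bases with the antisense gene Gm12823, and no source says whether counting used strand. Skint3 (ENSMUSG00000070868) lies at 112232245 to 112300468 on the plus strand, and Skint6 (ENSMUSG00000087194) at 112804616 to 113286973 on the minus strand, where it holds up to 49 exons. No other Skint gene overlaps exons of another gene.

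Skint5, the closest relative of Skint6 with 88.5% identity over 3720 aligned coding bases, stood at 1.47, 0.94 and 1.54 FPKM in Znf750_cKO and 1.43, 3.01 and 2.77 FPKM in control. Control replicate 1 lay within the Znf750_cKO range, so the groups overlapped (log2 change -0.53, SE 0.24). Skint4 stood at 7.68, 5.72 and 4.90 FPKM in Znf750_cKO and 5.48, 6.24 and 5.03 FPKM in control, again with overlap. Its log2 change of 0.09 (SE 0.17) was positive in 11 of 12 alternative fits and -0.06 in the remaining one, without Znf750_cKO replicate 1. Skint5 (ENSMUSG00000078598) lies at 113477891 to 113999503 on the minus strand with up to 59 exons, and Skint4 (ENSMUSG00000055960) at 112072016 to 112168076 on the plus strand.

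Skint11 was the least abundant member in both groups and the one with a higher level in Znf750_cKO. It stood at 1.19, 0.61 and 1.39 FPKM in Znf750_cKO and at 0.37, 0.14 and 0.48 FPKM in control, so that the lowest Znf750_cKO library was above the highest control library. From the depth and its 1393 exonic bases these levels stand for an estimated 54.4, 20.9 and 41.2 reads in Znf750_cKO and 13.6, 3.9 and 14.5 reads in control. It did not reach an FPKM of 1 in 3 libraries and was left out of the fit across genes. The difference of group means was 0.62 on the log2(FPKM + 1) scale, which understates the ratio of so low a gene. Skint11 (ENSMUSG00000057977, 114163384 to 114245028, plus strand) closes the right end of the cluster.

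Of the 9 members that entered the fit, 8 had log2 changes below 0, as had 62.2% of all tested genes. The median of the 9 was -0.69, against -0.08 over all tested genes. As members of the fit across all genes, 4 of them, Skint9, Skint7, Skint10 and Skint2, were among the genes called lower and 0 among those called higher, where 3.1% of all tested genes were called lower, 1.11% higher and 4.22% in either direction. Because the members were chosen with this contrast known, nothing is read from that count.

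Skint8 (ENSMUSG00000078599, 111919392 to 111950358, plus strand), outside the list, was tested. It stood at 3.53, 2.40 and 2.82 FPKM in Znf750_cKO and 5.91, 7.40 and 6.84 FPKM in control, and fell with an adjusted p of 0.019 in limma (log2 change -0.98, SE 0.16), lower in 3 of 3 Znf750_cKO libraries. With the replicate block the adjusted p was 0.053, and with no filter on low values 0.094, so that Skint8 passed under neither. Leaving out 1 library gave adjusted p-values from 0.045 to 0.08, under 0.05 only without Znf750_cKO replicate 2 or 3.

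Levels of the members ranked differently in the 2 groups. In Znf750_cKO, Skint1 was first, followed by Skint9 and Skint7, with ranges that did not meet. In control skin, Skint9 was first and its range lay above that of Skint1, while the ranges of Skint1 and Skint7 overlapped, although Skint1 was higher in each of the 3 libraries. Below these, Skint4, Skint6 and Skint3 overlapped in Znf750_cKO between 4.62 and 7.68 FPKM, and Skint2, Skint5, Skint10 and Skint11 overlapped between 0.61 and 1.75 FPKM. In control, Skint3, Skint6, Skint10, Skint4 and Skint2 lay between 3.34 and 10.7 FPKM, with each range overlapping the next down to Skint2. Skint5 lay below the range of Skint2, and Skint11 below that of Skint5.

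**Figure D2:**
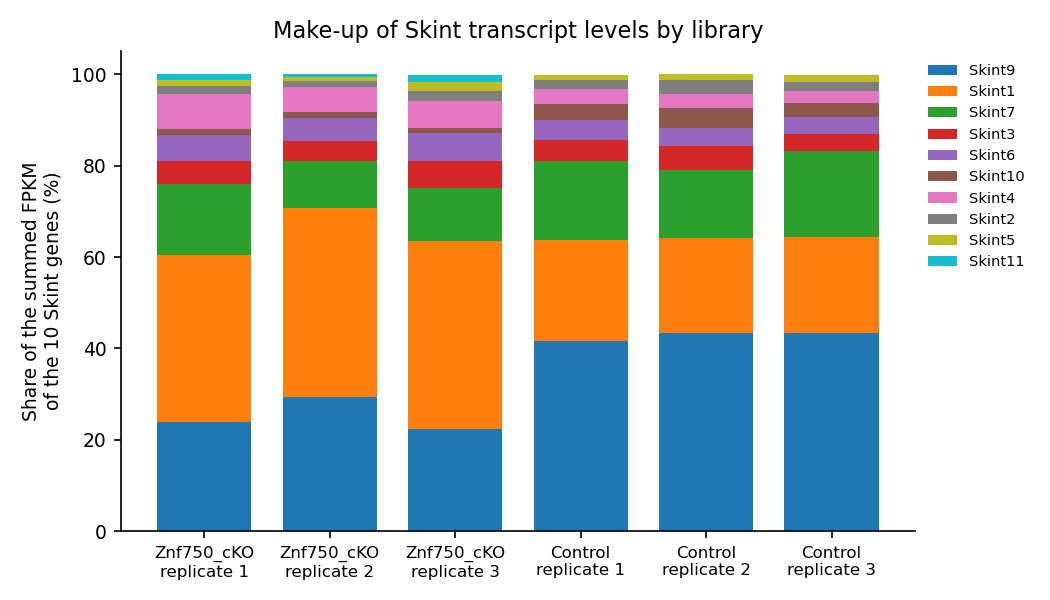
Share of each Skint member in the summed FPKM of the 10 members, in percent, for each Znf750_cKO and control library. The Skint1 part of the bars spans 36.5% to 41.5% in Znf750_cKO and 20.9% to 22.1% in control, and the Skint9 part 22.4% to 29.3% in Znf750_cKO and 41.7% to 43.3% in control.

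The family as a whole summed to 100.7, 105.9 and 81.7 FPKM in Znf750_cKO and 167.1, 208.3 and 198.4 FPKM in control, 1.99-fold lower by the means of 96.1 ± 12.7 FPKM in Znf750_cKO and 191 ± 21.5 FPKM in control (SD, n = 3 each). Its make-up also differed, as the plot of shares by library shows. Skint1 held 39.7% of the sum in Znf750_cKO and 21.4% in control on average, and Skint9 held 25.3% in Znf750_cKO and 42.8% in control. Ratios within a library do not depend on scaling between libraries: Skint9 to Skint1 was 0.658, 0.706 and 0.547 in Znf750_cKO and 1.89, 2.07 and 2.05 in control. The ratio of Skint10 to Skint11 was 1.08, 2.43 and 0.669 in Znf750_cKO and 15.9, 63.7 and 12.4 in control.

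**Figure D3:**
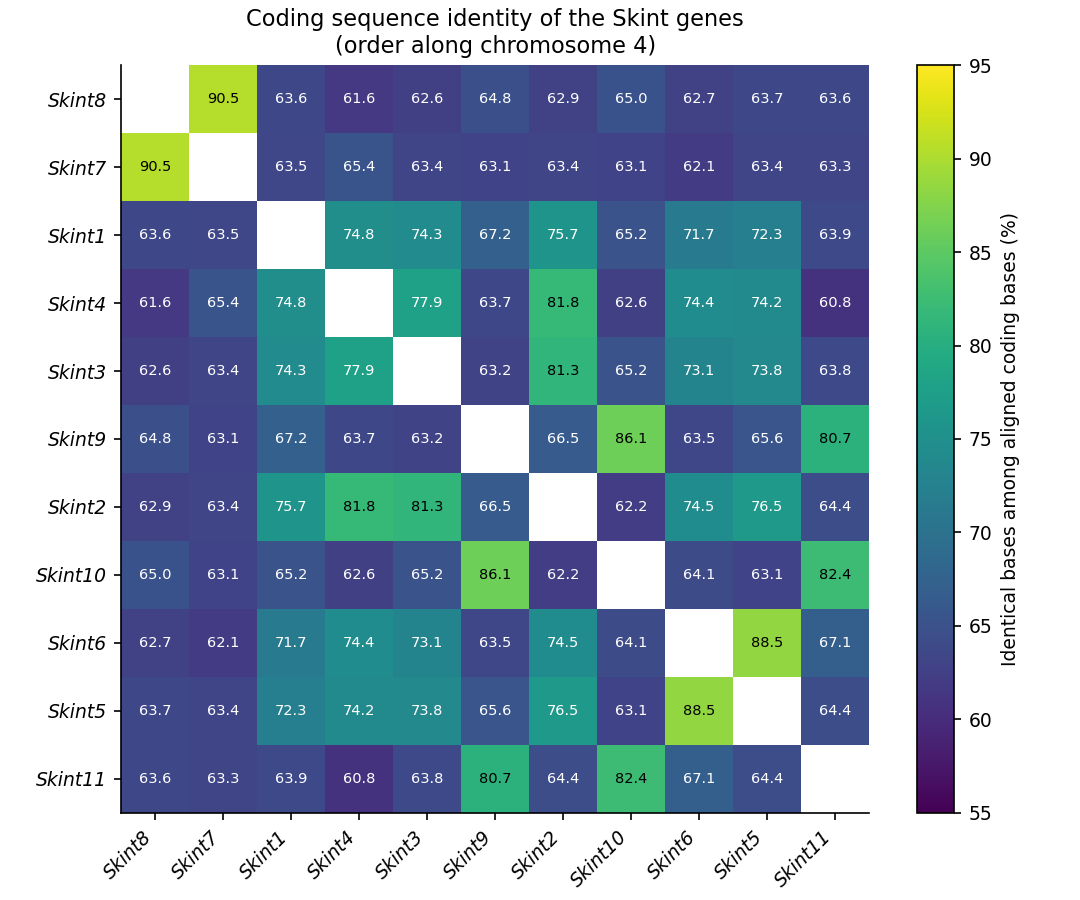
Percent of identical bases among aligned coding bases for each pair of Skint genes, in their order along chromosome 4. Brighter squares mark Skint7 with Skint8, Skint5 with Skint6, Skint9 with Skint10 and Skint11, and Skint2 with Skint3 and Skint4.

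In coding sequence the closest pairs were Skint7 and Skint8 at 90.5%, Skint5 and Skint6 at 88.5%, and Skint9 and Skint10 at 86.1% identity, and Skint11 was closest to Skint10 at 82.4%. Skint2 was 81.8% identical to Skint4 and 81.3% to Skint3, and Skint1 stood somewhat apart, with Skint2 as its closest relative at 75.7%. Members of 1 such group did not always differ between the groups in the same direction: Skint9 and Skint10 were lower and Skint11 higher in Znf750_cKO, and Skint2 was lower while Skint4 overlapped. Despite the likeness, every 100-base stretch of the annotated transcripts of Skint1, Skint2, Skint3, Skint4, Skint5, Skint6, Skint9 and Skint10 was unique to its gene on either strand, as were 99.6% of those of Skint11, 97.1% of Skint8 and 96.5% of Skint7. The stretches that Skint7 and Skint8 did not have to themselves were shared with each other.

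**Figure D4:**
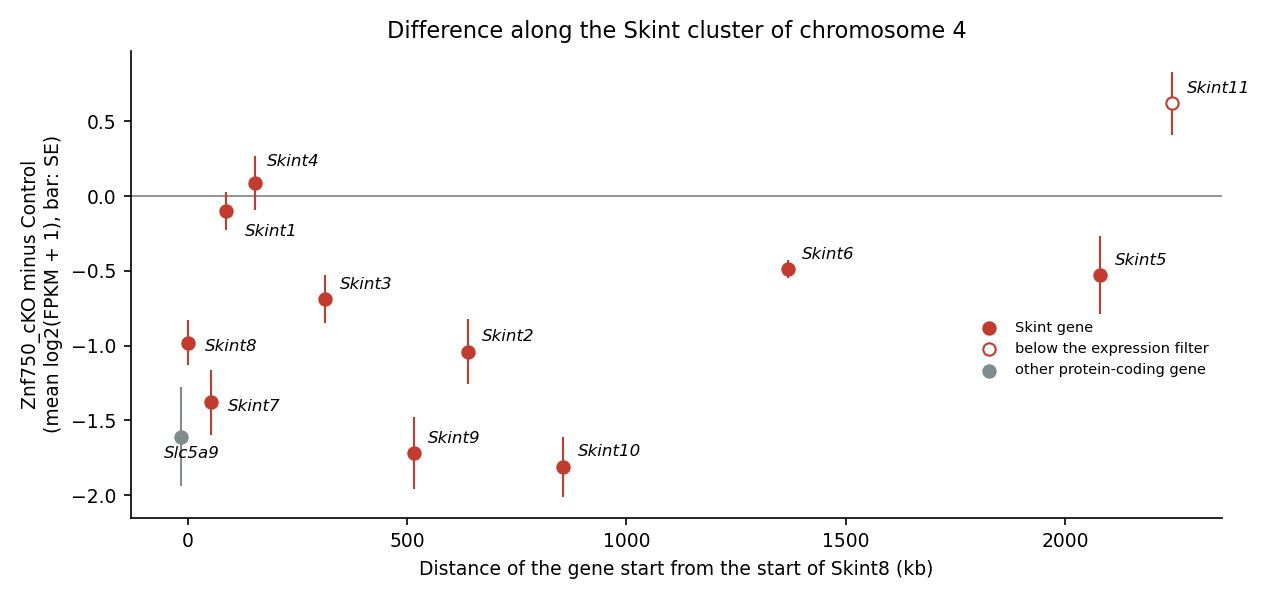
Difference in mean log2(FPKM + 1), Znf750_cKO minus control, of the 11 Skint genes and the nearest expressed neighbour against the distance of the gene start from the start of Skint8 in kilobases. Bars are standard errors of the difference with 3 libraries a group, and the open point is Skint11, below the expression filter. Skint1 and Skint4, near 0, lie between Skint7 and Skint3, which are below it.

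The cluster spans 2326 kb, from 111919392 to 114245028 on chromosome 4 of GRCm38, with 7 genes on the plus and 4 on the minus strand and 11 annotated pseudogenes inside. Differences did not follow position in a simple order. Skint1 starts 86.9 kb and Skint4 152.6 kb from the start of Skint8, between Skint7 at 53.5 kb (log2 change -1.38) and Skint3 at 312.9 kb (log2 change -0.69). Skint9 and Skint10, with the most negative values, start at 514.6 and 855.5 kb, and Skint6, Skint5 and Skint11 lie beyond.

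Of the 5 nearest protein-coding genes on each side of the cluster, 4 were tested, 1 fell and 3 did not pass, where 3.1% of all tested genes fell. Slc5a9, a sodium-dependent sugar transporter 16 kb from the Skint8 end of the cluster, stood at 2.16, 2.84 and 0.80 FPKM in Znf750_cKO and 8.14, 7.66 and 6.84 FPKM in control. It fell with an adjusted p of 0.021 in limma (log2 change -1.61, SE 0.27), lower in 3 of 3 Znf750_cKO libraries, and the adjusted p was 0.015 to 0.084 with 1 library left out, under 0.05 only without Znf750_cKO replicate 2 or 3. Spata6 and Bend5 on the same side and Cmpk1 on the other had log2 changes of -0.41, -0.05 and -0.19 with adjusted p = 0.29, 0.89 and 0.33. Trabd2b, the nearest gene beyond Skint11, was below 1 FPKM in each of the 6 libraries.

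**Figure D5:**
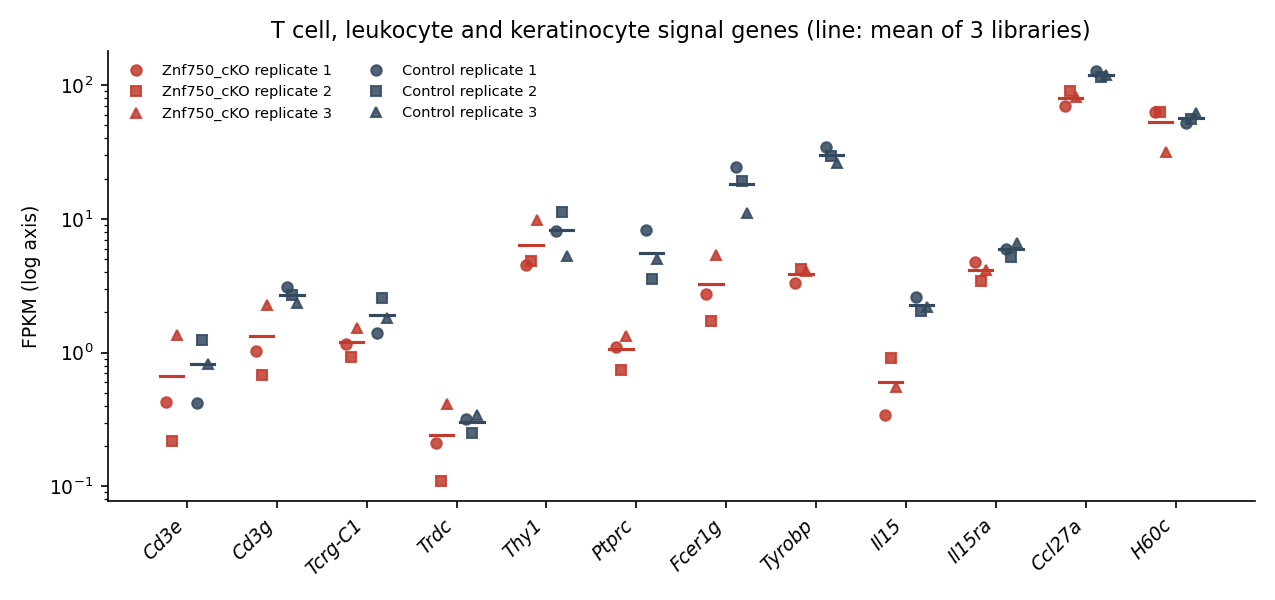
FPKM on a log axis of T cell receptor and leukocyte genes and of genes listed as epithelial signals to T cells, in 3 Znf750_cKO and 3 control libraries. Lines are means. Ptprc, Fcer1g, Tyrobp, Il15, Il15ra, Ccl27a and, narrowly, Cd3g are lower in every Znf750_cKO library, while Cd3e, Trdc, Tcrg-C1, Thy1 and H60c overlap. Cd3g and Il15ra did not pass (limma adjusted p = 0.16 for each).

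Genes of the T cells that Skint1 selects were near the lower limit of these libraries. Of 26 epidermal T cell genes, 14 were below 1 FPKM in every library and 7 were tested. Where 3.1% of all tested genes fell, 2 of these 7 fell, 0 rose and 5 did not pass limma. Their median log2 change was -0.40. The 2 that fell are not specific to T cells. Ptprc, the pan-leukocyte phosphatase CD45, stood at 1.11, 0.74 and 1.34 FPKM in Znf750_cKO and 8.21, 3.53 and 4.98 FPKM in control (log2 change -1.62, SE 0.27, limma adjusted p = 0.020). Fcer1g, an Fc receptor chain that myeloid cells also use and the most abundant gene of the list, stood at 2.75, 1.71 and 5.36 FPKM in Znf750_cKO and 24.4, 19.1 and 11.1 FPKM in control (log2 change -2.19, SE 0.40), with a limma adjusted p of 0.043, or 0.09 when replicate was a block. With 1 library left out, Ptprc passed in 3 fits (without Znf750_cKO replicate 3, control replicate 1 or control replicate 2) and Fcer1g in 2 (without replicate 3 of either group). Thy1, next to Fcer1g in abundance, overlapped between the groups and did not pass (log2 change -0.33, limma adjusted p = 0.65). It stood at 4.52, 4.88 and 9.84 FPKM in Znf750_cKO and 8.14, 11.2 and 5.26 FPKM in control.

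Receptor chains were chosen for mention after their values were seen. Cd3g, a chain of the T cell receptor complex, was at 1.03, 0.68 and 2.27 FPKM in Znf750_cKO and 3.07, 2.70 and 2.36 FPKM in control, narrowly apart, and did not pass (limma adjusted p = 0.16). Cd3e, another chain of the T cell receptor complex, was at 0.43, 0.22 and 1.36 FPKM in Znf750_cKO and 0.42, 1.24 and 0.82 FPKM in control. Tcrg-C1, a constant region of the γ chain, was at 1.16, 0.92 and 1.53 FPKM in Znf750_cKO and 1.40, 2.54 and 1.81 FPKM in control (log2 change -0.40, limma adjusted p = 0.33). Cd3e and Tcrg-C1 overlapped between the groups. Trdc, the constant region of the δ chain, did not exceed 0.41 FPKM in any library. Tcrg-V5, a variable region of the γ chain, had the higher mean in Znf750_cKO. It was at 1.16, 0.19 and 2.68 FPKM in Znf750_cKO and 0, 0.72 and 0.44 FPKM in control. The other receptor genes listed, Cd3d, Cd247 and Trdv4, had lower means in Znf750_cKO. Tcrg-V5 and these genes overlapped between the groups. They, Cd3e and Trdc were below the filter and were not tested. That Cd3g and Tcrg-C1 did not pass does not show that their levels were alike.

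Myeloid markers were lower in the same libraries as most Skint genes. Of 9 genes of Langerhans and other myeloid cells, 8 were tested and 8 fell, where 3.1% of all tested genes fell. Because this list was chosen with earlier results of these data known, the count is a description and not a test. H2-Aa, 1 of the 8, was below 1 FPKM in every Znf750_cKO library and met the filter through the control libraries alone. Also among the 8, H2-Ab1 and H2-Eb1, chains of MHC class II, did not pass with the replicate block (limma adjusted p = 0.062 and 0.051). With 1 library left out, H2-Ab1 passed only without a control library (3 of 6 fits), H2-Eb1 in all but the fit without Znf750_cKO replicate 1, and Aif1, a macrophage calcium-binding protein, only without control replicate 3. Those 3 genes also did not pass with no filter on low values, at limma adjusted p = 0.097, 0.080 and 0.11. The summed level of the list was 12.9 to 16.7 FPKM in Znf750_cKO and 95.4 to 168.6 FPKM in control, although Cd207, the defining langerin gene, reached at most 0.06 FPKM. The most abundant, Ctss, a lysosomal protease, had a log2 change of -2.88 (limma adjusted p = 0.00065). Of 8 suprabasal genes 1 rose, Ivl, a cornified envelope protein, and of 7 basal genes 1 rose, the integrin Itgb4. No gene of either list fell, and 1.11% of all tested genes rose. Groups were apart and higher in Znf750_cKO for 4 of the 7 basal genes, against 8.28% of all tested genes. The basal median log2 change was 0.36. At an unadjusted limma p under 0.05 stood 4 basal and 2 suprabasal genes. The suprabasal Flg was apart and lower but did not pass (log2 change -0.83, limma adjusted p = 0.1). Its levels were 967, 994 and 747 FPKM in Znf750_cKO and 1336, 2309 and 1325 FPKM in control. Ivl did not pass with the replicate block (limma adjusted p = 0.058) and passed in 2 of 6 fits with 1 library left out, those without Znf750_cKO replicate 3 or control replicate 2. Itgb4 passed in 0 of those 6 fits (limma adjusted p = 0.056 to 0.16) and not with TPM scaling (0.068), and neither gene passed with no filter (0.068 for Ivl and 0.17 for Itgb4). The suprabasal sum was 24720 to 35550 FPKM in Znf750_cKO and 21400 to 33800 FPKM in control, and the basal sum 15530 to 16710 FPKM in Znf750_cKO and 13920 to 15570 FPKM in control. Melanocyte genes summed to 96.3 to 114.2 FPKM in Znf750_cKO and 79.7 to 140.3 FPKM in control, with Dct, a pigment enzyme, as the most abundant. Fibroblast genes summed to 113.7 to 170.7 FPKM in Znf750_cKO and 132.9 to 158.6 FPKM in control, nearly all of it Dcn, with the defining Col1a1 at no more than 0.59 FPKM. In limma 0 genes of the melanocyte, fibroblast and endothelial lists were called, with 0 at an unadjusted p under 0.05. Blood genes, of which Hba-a2 fell (limma adjusted p = 0.0055), summed to 6.92 to 11.1 FPKM in Znf750_cKO and 19.6 to 52.7 FPKM in control, and endothelial genes, nearly all Pecam1, to 5.49 to 31.2 FPKM in Znf750_cKO and 9.40 to 25.2 FPKM in control. The part of these cell types in the Skint values was not tested.

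In the list of epithelial signals to epidermal T cells, 2 genes fell, and which cells of the suspension made their transcripts was not tested. Of 19 genes on this list, 12 were tested, 2 fell, 0 rose and 10 did not pass limma, where 3.1% of all tested genes fell. The median log2 change of the 12 was -0.07. Il15, a cytokine that keeps intraepithelial T cells alive, stood at 0.34, 0.91 and 0.55 FPKM in Znf750_cKO and 2.59, 2.05 and 2.19 FPKM in control (log2 change -1.05, SE 0.19), with a limma adjusted p of 0.029, or 0.062 when replicate was a block. Il15 was below 1 FPKM in every Znf750_cKO library and entered the fit through the control libraries alone, so its call is not independent of the filter. Ccl27a, a skin chemokine that draws T cells carrying the receptor CCR10, stood at 69.4, 89.9 and 81.1 FPKM in Znf750_cKO and 127.2, 114.3 and 118.7 FPKM in control (log2 change -0.58, SE 0.12), with a limma adjusted p of 0.038, or 0.066 under the same block. Both were lower in 3 of 3 Znf750_cKO libraries, but each passed in only 1 of 6 fits with 1 library left out, the one without Znf750_cKO replicate 2, and Ccl27a did not pass with median-ratio scaling (0.11). Cxcl14 and Cdh1, the most abundant genes of the list, had log2 changes of 0.14 and -0.04 with adjusted p = 0.58 and 0.91. Tslp, an epithelial cytokine also chosen after its values were seen, was below the filter at 1.70, 0.99 and 1.18 FPKM in Znf750_cKO and 0.03, 0.27 and 0.21 FPKM in control.

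Few butyrophilin and B7 relatives were expressed beside the Skint genes. Of 17 relatives, 13 stayed below 1 FPKM in every library, 5 of them listed at 0 throughout. Where 3.1% of all tested genes fell, 3 relatives were tested, of which 1 fell and 2 did not pass. Cd86, a costimulatory ligand of antigen-presenting cells, stood at 0.54, 0.23 and 0.34 FPKM in Znf750_cKO and 2.13, 1.75 and 1.43 FPKM in control (log2 change -1.01, SE 0.19), with a limma adjusted p of 0.029, or 0.051 when replicate was a block. Cd86 also met the filter through the control libraries alone, so its call is not independent of the filter. It passed in 0 of 6 fits with 1 library left out, with adjusted p-values of 0.061 to 0.10. Cd276 and Icosl, further B7 ligands and the most abundant of the list, had log2 changes of 0.09 and 0.02 and adjusted p = 0.84 and 0.97.

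Genes whose levels ran most nearly parallel to Skint9 over the 6 libraries included Emc9, Smim5, Jpt1 and Gm16136. Their Pearson's r of log2(FPKM + 1) with Skint9 was 0.9959 to 0.9984, a description over libraries that fall into the same 2 groups. Emc9, a subunit of a membrane protein insertion complex, stood at 7.41, 8.40 and 6.46 FPKM in Znf750_cKO and 12.7, 14.2 and 13.3 FPKM in control. For both Emc9 and Skint9, replicate 2 was highest and replicate 3 lowest in Znf750_cKO. Emc9 was picked for the highest r among all tested genes outside the family, so this likeness comes with the choice.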

How the data were processed

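Per the file headers, the deposited values are FPKM, 1 per gene and library, computed by the authors. The submitters' processing notes list, without roles, the tools RSEM (1.2.28), STAR (2.5.2a), DESeq2, FastQC (0.11.8), cutadapt (1.15), MultiQC (1.0) and Trim Galore (0.4.5), and the builds mm10 and GRCm38. Annotation release, filters and strand setting: not given in the sources used here. Symbols matched 55141 of 55487 identifiers, and 99.5% of identifiers are in GENCODE M21 (GRCm38), the source of coordinates and transcripts.

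The planned test for FPKM was used: limma 3.58.1 (R 4.3.3, statmod 1.5.0) with trend and robust variances on log2(FPKM + 1), group as the only term, for 13688 genes with at least 1 FPKM in at least 3 libraries. Calls have a Benjamini-Hochberg adjusted p under 0.05 over all tested genes. "Rose" and "fell" are kept for such calls. Depth was estimated from FPKM steps of genes with 1 transcript: 73.7% to 81.1% of low values lay within 0.1 read of a whole number, where chance gives 20%. It entered no test. Coding sequences and windows were aligned with Biopython 1.88.

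The members and lists were chosen with earlier results of these data known. Named genes are all Skint genes, tested cluster neighbours, called genes and the 2 most abundant of each T cell and relative list, the most abundant of each cell type list, and the 5 genes most correlated with Skint9, of which 1 is not reported here. Libraries with the same replicate number correlated at 0.31, 0.17 and 0.48 after group means were removed. Libraries with different numbers correlated at -0.39 to 0.24, the highest for Znf750_cKO replicate 2 with control replicate 1. A fit with a replicate block was run beside the main fit. The replicate numbers are not explained in the labels. Other alternatives were another pseudocount, no filter, 2 scalings and leaving out each library.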

Additional observations from a re-analysis of the deposited data

How the results depend on the processing

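The log2 changes of Skint8 and of the 7 tested members other than Skint1 and Skint4 kept their sign in all 12 alternatives. Skint1 ran from -0.21 to 0.00 and Skint4 from -0.06 to 0.22. Median-ratio scaling moved the median of all tested genes by 0.10 on the log2 scale and gave 248 higher and 265 lower genes, against 152 and 425. With no filter on low values, 35621 genes entered and 85 were called. The Skint members called then numbered 2 (Skint9 and Skint10). In limma with no filter 0 epidermal T cell genes, 0 T cell signals, 0 butyrophilin relatives and 0 cluster neighbours were called, with 4, 5, 1 and 1 at an unadjusted p under 0.05. Epidermal T cell calls numbered 1 with a pseudocount of 0.1, 1 with TPM scaling, 1 with the replicate block and 1 without replicate 3 of both groups, an alternative chosen after seeing the data. T cell signals numbered 1 with median-ratio scaling, 0 with the block and 0 without replicate 3 of both groups (4 and 2 at an unadjusted p under 0.05), and butyrophilin relatives 0 and 0 (1 and 1). The replicate block gave 392 calls over all genes and 3 Skint members. With 1 library left out, calls ran from 100 (without Znf750_cKO replicate 1) to 356 over all genes, were 3 in each fit for Skint members, where Skint2 dropped out, and ran from 0 to 3 for epidermal T cell genes, 0 to 2 for T cell signals, 0 to 0 for relatives and 0 to 1 for neighbours. Fewer samples or more tested genes are part of these settings by construction; otherwise the cause was not tested. Skint11 and most T cell receptor genes lay below the filter on low values.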
